A study of Homo sapiens with 9 samples.

Results

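RNA levels of 9 genes of the ERK pathway were measured in LNCaP prostate cancer cells with and without the long noncoding RNA gene *EPCART*. The 9 genes are *MAPK3*, *MAP2K1*, *MAP2K2*, *DUSP4*, *DUSP6*, *SPRY2*, *SPRY4*, *EGR1* and *FOS*, taken by symbol from the 19984 gene identifiers of the count table, and all 9 were present and passed the filter on low values. The cells were 3 clones of LNCaP, a human prostate cancer line that expresses the androgen receptor. The clones del-4 and del-56 carry a CRISPR-Cas9 deletion that takes out the promoter and first exons of *EPCART*, and the WT clone, which kept the gene, came from the same CRISPR-Cas9 work. Each clone was cultured in 3 biological replicates for 48 hours in RPMI 1640 medium with serum, and the labels give no further treatment for any group. Each genotype is thus represented by 1 WT clone and 2 deletion clones, and differences between clones that arose apart from the deletion cannot be told apart from it. *EPCART* itself was not analysed here.

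Growth factor receptors pass their signal through the RAS GTPases and the RAF kinases to the kinases MEK1 and MEK2, encoded by *MAP2K1* and *MAP2K2*, which phosphorylate and switch on ERK kinases such as ERK1 (*MAPK3*). Active ERK raises transcription of immediate-early genes such as *EGR1* and *FOS* within minutes, and then of its own inhibitors: the dual-specificity phosphatases *DUSP4* and *DUSP6* remove the activating phosphates from ERK, and the Sprouty proteins *SPRY2* and *SPRY4* restrain signalling between the receptor and RAF. The kinases are controlled mostly by phosphorylation and their RNA moves little with the signal, while the RNA of the feedback genes is widely used as a readout of ERK output. Only RNA was measured here, and neither ERK phosphorylation nor protein was.

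Libraries held 91074556 to 118877134 reads on genes. Levels are given as normalized counts, which are reads divided by the size factor of the library. The log2 fold change (log2FC) is the difference between clone means of log2(normalized count + 1). The added 1 pulls changes of low genes toward 0. For low genes that vary between replicates, the value can also lie farther from 0 than under other tests. A gene was called at an adjusted p under 0.05 from limma over all genes tested. The luminal prostate markers summed, over 10 genes, to 365689 to 385837 in the 9 libraries, but single markers differed: 3 of the 10 were called higher and 6 lower in del-4, 2 higher and 3 lower in del-56, and 8 differed between the deletion clones. In all libraries *CD3E* and *CDH5* were at 0. Of the markers of other cells, 5 of 6 leukocyte, 3 of 4 endothelial, 2 of 6 fibroblast and 2 of 3 basal genes never exceeded 20 reads. The fibroblast markers summed to 1116 to 1205 normalized counts in WT, 1274 to 1488 in the clone del-4 and 1421 to 1569 in the clone del-56. Among them *COL1A1* was higher in both deletion clones (log2FC 0.33 and 0.34), and in del-56 *LUM* was higher (2.20) and *COL3A1* lower (-0.86). The endothelial marker *VWF* was lower in del-4 (-0.97). The leukocyte marker *CD14*, one of those that never exceeded 20 reads, was higher in del-56 (2.91), a value that rests on few reads. When the filter on low values was raised to 10, 1 leukocyte marker was left in del-56 against WT, and 0 were called. The part of these markers in the results was not tested.

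In both comparisons with WT, 4 of the 9 genes were called, against 40.7% of the 17401 genes tested in del-4 and 39.7% of 17481 in del-56. In del-4, *MAPK3*, *DUSP4* and *SPRY4* were lower and *MAP2K2* was higher, where 20.2% of all genes were called lower and 20.5% higher. In del-56, *MAPK3*, *DUSP4*, *SPRY2* and *SPRY4* were lower, against 20.5% of all genes called lower. The 9 genes had a median log2FC of -0.14 (del-4) and -0.27 (del-56), beside -0.0028 and -0.0011 over all genes. These medians are the values of single genes, *MAPK3* in del-4 and *FOS*, not called, in del-56. Both values turned sign under some alternatives, so the medians do not show a shared shift of the 9 genes. Between the deletion clones only *SPRY2* was called, against 19.9% of 17447 genes. Both comparisons with WT use the same 3 WT libraries and are therefore not independent. The libraries are bulk RNA, in which fewer expressing cells and less RNA per cell cannot be told apart. With an unadjusted p under 0.05 and a log2FC above 1 or below -1, 1 member (*SPRY4*) was past it in del-4 and 2 (*SPRY2* and *SPRY4*) in del-56, against 5.82% and 5.94% of all genes. With an adjusted p under 0.05 in place of the unadjusted one, these counts stayed at 1 and 2, against 4.83% and 4.87%. Between the deletion clones 1 member (*SPRY2*) was past each rule, against 4.28% and 2.93%. The libraries did not overlap with those of WT for 6 of the 9 members (del-4) and 5 (del-56), which held for 49.5% and 48.7% of all genes, and the deletion clones did not overlap for 2 (34.7% of all genes).

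**Figure D1:**
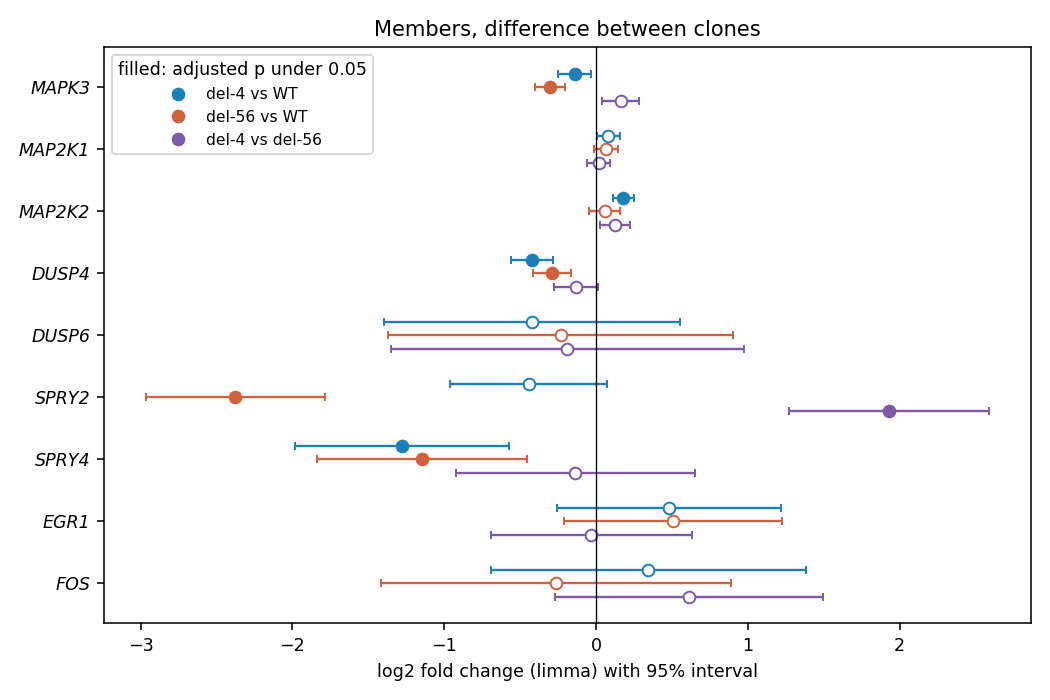
Each row is a gene and each point its log2 fold change with the 95% interval from limma, for del-4 against WT (blue), del-56 against WT (orange) and del-4 against del-56 (purple), filled where the adjusted p was under 0.05. *SPRY2* in del-56 lies farthest from 0 at -2.38, the kinases lie between -0.30 and 0.18, and the intervals of *DUSP6*, *EGR1* and *FOS* cross 0 in all 3 comparisons.

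The promoters of *SPRY4*, called lower in both deletion clones, of *SPRY2*, called lower in del-56, and of both immediate-early genes, which were not called, are shown so that their serum response and cyclic AMP motifs can be read beside the levels. Each is the 250 bases before the RefSeq start site on the strand of the gene (RefSeq, GRCh38.p14), at chr13:80341127-80341376 (minus) for *SPRY2*, chr5:142324248-142324497 (minus) for *SPRY4*, chr5:138465229-138465478 (plus) for *EGR1* and chr14:75278578-75278827 (plus) for *FOS*. The entry for *SPRY2* is the one of 3 nearest to the start of the gene in the annotation, and the entry for *SPRY4* lies inside the annotated gene, downstream of its outermost start. Capitals mark CArG boxes, the binding sequence of serum response factor, and the core of the cyclic AMP response element, TGACG, or its reverse complement CGTCA.
SPRY2: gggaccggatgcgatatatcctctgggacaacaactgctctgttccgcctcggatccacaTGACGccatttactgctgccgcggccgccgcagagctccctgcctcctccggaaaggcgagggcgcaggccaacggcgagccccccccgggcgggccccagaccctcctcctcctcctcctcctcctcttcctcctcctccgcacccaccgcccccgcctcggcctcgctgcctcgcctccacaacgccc
SPRY4: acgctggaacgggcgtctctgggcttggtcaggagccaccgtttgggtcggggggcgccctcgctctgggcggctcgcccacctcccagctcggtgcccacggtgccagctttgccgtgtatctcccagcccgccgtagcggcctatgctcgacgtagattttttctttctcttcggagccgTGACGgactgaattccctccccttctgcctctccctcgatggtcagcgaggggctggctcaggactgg
EGR1: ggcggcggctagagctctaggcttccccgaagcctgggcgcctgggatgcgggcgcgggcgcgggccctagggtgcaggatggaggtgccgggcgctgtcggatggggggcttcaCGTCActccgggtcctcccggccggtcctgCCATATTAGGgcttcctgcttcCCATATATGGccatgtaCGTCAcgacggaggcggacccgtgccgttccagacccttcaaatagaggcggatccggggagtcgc
FOS: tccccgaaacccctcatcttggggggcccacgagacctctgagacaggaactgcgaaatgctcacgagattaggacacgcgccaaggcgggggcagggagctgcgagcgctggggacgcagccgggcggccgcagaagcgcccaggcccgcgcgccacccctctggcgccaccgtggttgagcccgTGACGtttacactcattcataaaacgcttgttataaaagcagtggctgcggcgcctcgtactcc
The *EGR1* window holds 2 CArG boxes, CCATATTAGG at 105 to 96 and CCATATATGG at 83 to 74 bases before the start, and a CArG box was found in 1.14% of 27305 RefSeq promoter windows of the same length, searched on both strands. The core TGACG, on either strand, was found once each in the *SPRY2*, *SPRY4* and *FOS* windows and at 2 places in that of *EGR1*, and 21.7% of all windows hold it. The window of the kinase gene *MAP2K1*, not shown, also holds it, at 148 to 144 and 135 to 131 bases before the start. Of the 9 genes, 8 have a promoter entry. The strict ETS sequence CCGGAAG was found in 0 of these 8 windows and in 8.82% of all windows. Shorter or variant ETS sequences were not searched, so these windows may still hold ETS sites. These are matches of letters in a short window only. Sequence farther from the start was not searched, so a motif absent from a window, as the CArG box is for *FOS*, may lie beyond it. *DUSP4* has no entry.

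Among the 9 genes, the kinase genes were expressed at far higher levels than the feedback genes. Per kilobase of exon in WT, the normalized count was 1924 for *MAP2K2*, 1666 for *MAP2K1* and 1318 for *MAPK3*, then 284 for *DUSP4* and 43.2 for *SPRY2*. The lowest were *EGR1* at 13.0, *SPRY4* at 10.1, *FOS* at 9.68 and *DUSP6* at 4.72. Among these, *EGR1*, *SPRY4* and *FOS* were within the SD of each other (4.74, 3.20 and 5.89 per kilobase), and the other neighbours in the order did not overlap over the WT libraries, except *FOS* and *DUSP6*. The reads behind the low genes were few: 6 to 34 per library for *DUSP6*, 10 to 46 for *FOS*, 28 to 70 for *EGR1*, 22 to 94 for *SPRY4* and 20 to 177 for *SPRY2*. Their SD within a clone on the log2 scale was 0.62 for *DUSP6*, 0.79 for *FOS*, 0.43 for *EGR1*, 0.31 for *SPRY2* and 0.29 for *SPRY4*, against a median of 0.085 over 17530 genes. For the kinases it was 0.028 to 0.082.

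**Figure D2:**
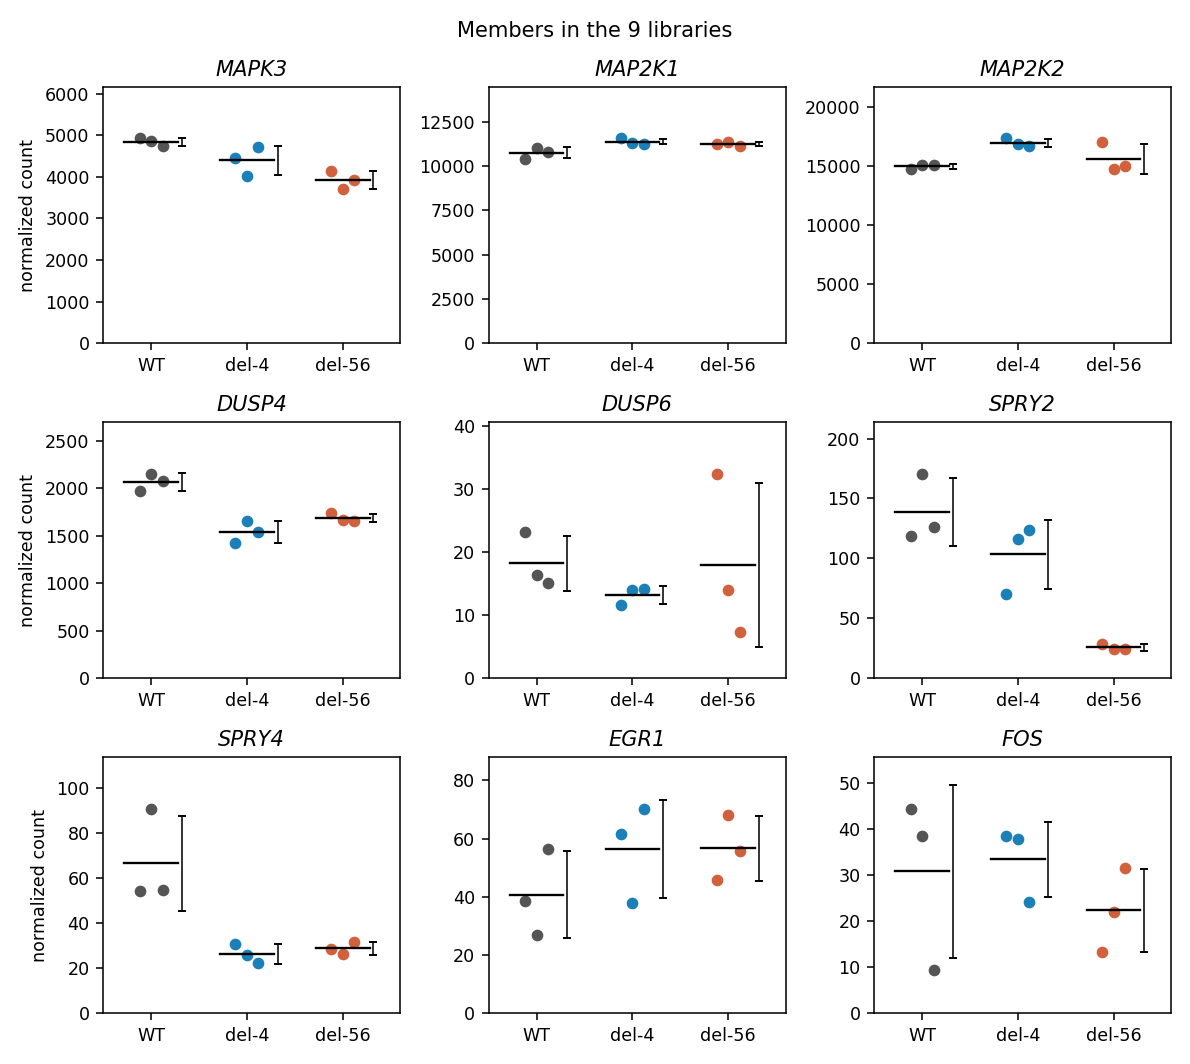
Normalized count (linear axis from 0, a scale for each gene) of the 9 genes in each library of WT, del-4 and del-56, with the mean as a line and the SD as a bar beside it. *DUSP4* and *SPRY4* lie below all WT libraries in both deletion clones, and *SPRY2* is low in del-56, where its libraries range from 24.1 to 28.6.

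*MAPK3* (ENSG00000102882.12, GRCh38 chromosome 16, 30114105 to 30123506, minus strand), which encodes ERK1, had normalized counts of 4921, 4853 and 4728 in WT, 4447, 4028 and 4713 in the clone del-4, and 4131, 3707 and 3928 in the clone del-56. All WT libraries were above all libraries of both deletion clones, although del-4 replicate 3 was only just below the lowest WT library. The log2FC was -0.14 ± 0.051 (SE) in the clone del-4 (adjusted p = 0.037) and -0.30 ± 0.048 in the clone del-56 (adjusted p = 1.0e-04), 1.10-fold and 1.23-fold lower. In del-4 the call was lost when any library other than del-4 replicate 3 was left out, with an adjusted p of up to 0.21 (without del-4 replicate 2). The direct difference between the deletion clones, 0.16 ± 0.058, had an adjusted p of 0.055 and was called under 6 of the 17 alternatives.

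Most genes of chromosome 16 were lower in the same clones as *MAPK3*. The median log2FC of the chromosome was -0.34 over 789 genes in del-4, with 89.5% of them below 0, and -0.31 over 790 genes in del-56, with 86.7% below 0. Of the 50 expressed genes nearest to *MAPK3*, 25 on each side, 96% were lower in del-4 with a median of -0.29, and 98% in del-56 with a median of -0.35. *MAPK3* was thus less reduced than 84% of its neighbours in del-4 and 62% in del-56. When each library was centred on the median of the chromosome, a setting chosen after the data were seen, *MAPK3* was higher in del-4 (0.20, adjusted p = 0.0063) and at 0.0046 in del-56 (adjusted p = 0.96). DNA copy number was not measured.

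**Figure D3:**
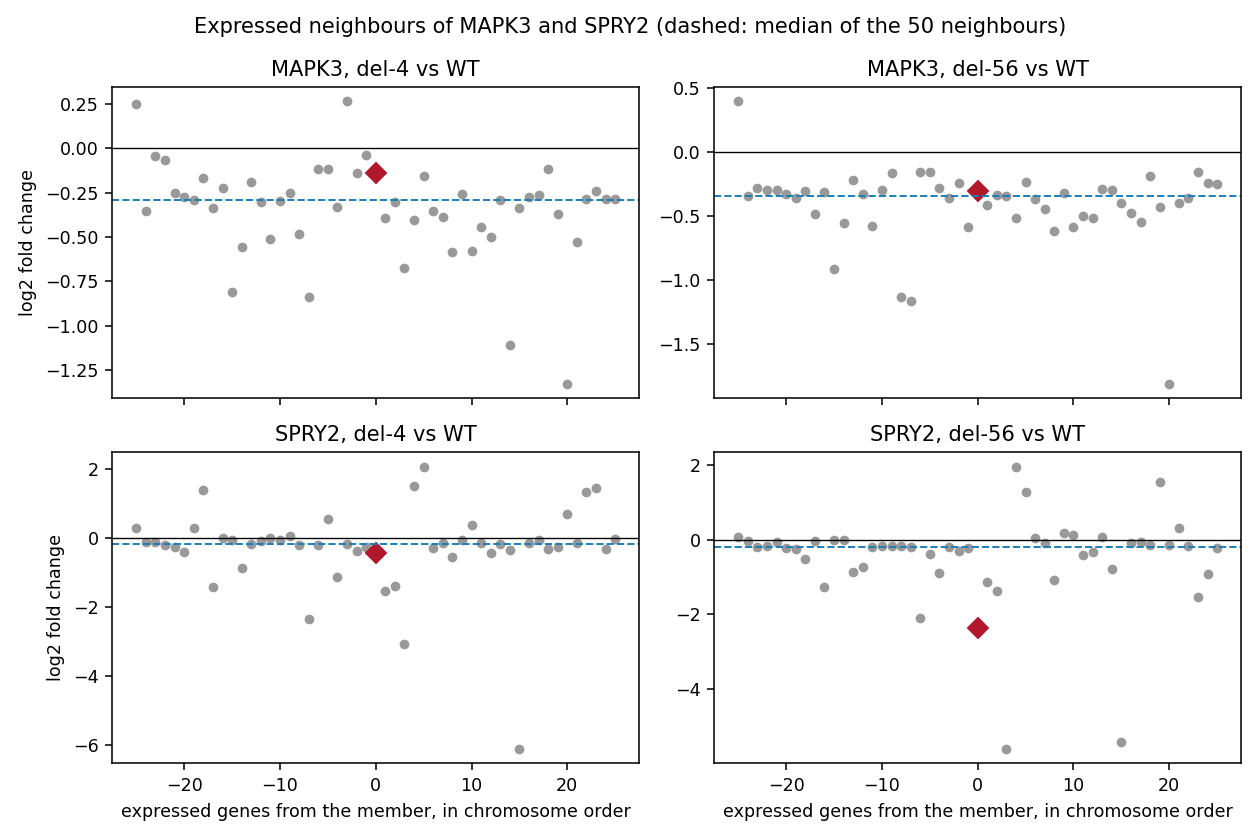
Log2 fold change against WT (y axis) of *MAPK3* or *SPRY2* (red diamond) and of its 25 expressed neighbours on each side (grey), by order along the chromosome (x axis), with the median of the neighbours dashed. *MAPK3* sits among neighbours that are nearly all below 0. *SPRY2* in del-56, at -2.38, lies below a neighbour median of -0.19, and 82% of its neighbours are also below 0.

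*MAP2K1* (ENSG00000169032.10, chromosome 15, 66386837 to 66491656, plus strand), which encodes MEK1, had normalized counts of 10431, 11039 and 10824 in WT, 11572, 11333 and 11269 in the clone del-4, and 11250, 11370 and 11126 in the clone del-56. Every deletion library was above every WT library, but the gap was narrow. The log2FC was 0.08 ± 0.036 in the clone del-4 (adjusted p = 0.078) and 0.06 ± 0.037 in the clone del-56 (adjusted p = 0.19), with 95% intervals of 0.0065 to 0.16 and -0.015 to 0.14. *SNAPC5* lies on the other strand within the gene, and since the strand setting of the counting is not given in the sources used here, reads of both genes may not be told apart. *MAP2K2* (ENSG00000126934.14, chromosome 19, 4090321 to 4124122, minus strand), which encodes MEK2, had 14687, 15083 and 15069 in WT, 17307, 16842 and 16690 in the clone del-4, and 17037, 14740 and 14940 in the clone del-56. All del-4 libraries were above WT, while in del-56 replicate 1 was high and the other two were within the WT range. *MAP2K2* was 1.13-fold higher in del-4 (log2FC 0.18 ± 0.034, adjusted p = 3.0e-04). In del-56 the log2FC was 0.06 ± 0.048 (adjusted p = 0.39), and -0.010 without replicate 1. The difference between the deletion clones, 0.12 ± 0.047, was not called (adjusted p = 0.074), but it was without del-56 replicate 1 (0.19, adjusted p = 8.7e-04).

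*DUSP4* (ENSG00000120875.9, chromosome 8, 29333064 to 29350684, minus strand), a nuclear phosphatase that acts on ERK and JNK, had normalized counts of 1968, 2156 and 2078 in WT, 1425, 1659 and 1543 in the clone del-4, and 1740, 1663 and 1661 in the clone del-56. All deletion libraries were below all WT libraries, and the deletion clones also did not overlap, with del-4 lower. The log2FC was -0.42 ± 0.066 in the clone del-4 (adjusted p = 4.6e-05) and -0.29 ± 0.060 in the clone del-56 (adjusted p = 0.0010), 1.34-fold and 1.22-fold lower, and both calls remained without any 1 library. Between the deletion clones the log2FC was -0.13 ± 0.068 (adjusted p = 0.20). The 50 expressed neighbours of *DUSP4* had medians of -0.012 and -0.0071.

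*DUSP6* (ENSG00000139318.8, chromosome 12, 89347235 to 89352501, minus strand), a cytoplasmic phosphatase specific for ERK and one of its most used transcriptional readouts, was detected with few reads. Its normalized counts were 23.2, 16.4 and 15.1 in WT, 11.5, 13.9 and 14.1 in the clone del-4, and 32.4, 14.1 and 7.28 in the clone del-56. The del-4 libraries were all just below WT, and the del-56 libraries spread over the whole range. The log2FC was -0.42 with a 95% interval of -1.40 to 0.56 in the clone del-4 (adjusted p = 0.51) and -0.23 with -1.37 to 0.90 in the clone del-56 (adjusted p = 0.77). A log2FC of -1 lies within both intervals, so that a change of this size cannot be told from none here.

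Of the 8 other dual-specificity phosphatases tested, 2 were higher and 3 lower in del-4, and 1 was higher and 4 lower in del-56. Over all genes, 40.7% were called in del-4 and 39.7% in del-56. *DUSP5*, a nuclear phosphatase specific for ERK, had normalized counts of 242, 259 and 271 in WT, 140, 153 and 149 in the clone del-4, and 95.4, 88.4 and 141 in the clone del-56. No deletion library reached the lowest WT one, while del-56 replicate 3 overlapped del-4. *DUSP5* was lower in del-4 (log2FC -0.80, adjusted p = 5.5e-04) and del-56 (-1.27, adjusted p = 9.9e-05). *DUSP10*, which acts on JNK and p38, was lower by a like amount in both (-0.48 and -0.51). *DUSP7*, another cytoplasmic ERK phosphatase, was higher in both (0.16 and 0.16), calls that were lost when libraries were rescaled to the same total. In del-56 the *DUSP7* call was also lost with the replicate number as a block (adjusted p = 0.064) and after chromosome centring (adjusted p = 0.061). *DUSP1* was not called in either clone (0.03 and -0.05).

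*SPRY2* (ENSG00000136158.12, chromosome 13, 80335976 to 80341126, minus strand) separated the deletion clones. Its normalized counts were 119, 171 and 126 in WT, 70.1, 117 and 124 in the clone del-4, and 28.6, 24.1 and 24.3 in the clone del-56. The del-56 libraries were far below all others, and del-4 overlapped WT. In del-56 *SPRY2* was 5.19-fold lower than in WT (log2FC -2.38 ± 0.28, adjusted p = 4.8e-06), while in del-4 the log2FC was -0.44 with a 95% interval of -0.96 to 0.07 (adjusted p = 0.16). The difference between the deletion clones was itself called, with del-4 3.81-fold higher than del-56 (log2FC 1.93 ± 0.31, adjusted p = 2.1e-04). Both calls held under every alternative that was run. The 50 expressed neighbours had a median of -0.17 (del-4) and -0.19 (del-56), with 78% and 82% of them below 0. Next to *SPRY2* by position, *SLITRK1* (-1.53 and -1.12), *SLITRK6* (-1.38 and -1.38) and *SLITRK5* (-3.07 and -5.60) were lower in del-4 and del-56. Beyond them, *GPC5* (1.52 and 1.95) and *GPC6* (2.08 and 1.26) were higher. The part of the locus in the *SPRY2* values was not tested.

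*SPRY4* (ENSG00000187678.10, chromosome 5, 142310427 to 142326455, minus strand) was low in both deletion clones. Its normalized counts were 54.1, 90.7 and 54.7 in WT, 30.7, 25.9 and 22.1 in the clone del-4, and 28.6, 26.1 and 31.5 in the clone del-56. All 6 deletion libraries were below the lowest WT library, the deletion clones overlapped, and WT replicate 2 stood above the other WT libraries. The level was 2.43-fold lower in del-4 (log2FC -1.28 ± 0.33, adjusted p = 0.0050) and 2.21-fold lower in del-56 (-1.14 ± 0.33, adjusted p = 0.010). Without WT replicate 2 the log2FC was -1.04 in the clone del-4 (adjusted p = 0.047) and -0.90 in the clone del-56 (adjusted p = 0.075), so that the call in del-56 was lost. Between the deletion clones the log2FC was -0.14 with a 95% interval of -0.92 to 0.65. The neighbours had a median of -0.23 (del-4) and 0.03 (del-56). *SPRY4-AS1*, a long noncoding gene, overlaps *SPRY4* on the other strand.

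*SPRY1*, which encodes a protein of the same family, was on the other side of WT from *SPRY2* and *SPRY4*. It had normalized counts of 1914, 1954 and 2259 in WT, 8246, 7436 and 8001 in the clone del-4, and 3932, 3677 and 3646 in the clone del-56. The clones did not overlap, in the order del-4, del-56 and WT from the highest. *SPRY1* was higher in del-4 (log2FC 1.95, adjusted p = 2.9e-14) and del-56 (0.88, adjusted p = 2.4e-08), and higher in del-4 than in del-56 (1.07, adjusted p = 2.1e-11). Per kilobase of exon, *SPRY1* was at 515 in WT, above the 43.2 of *SPRY2* and the 10.1 of *SPRY4*. *SPRY3* was not called in either clone (-0.32 and -0.02). Of the SPRED genes, relatives that recruit neurofibromin to RAS, *SPRED2* was lower in both clones (-0.38 and -0.32, adjusted p = 2.1e-05 and 2.3e-04).

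**Figure D4:**
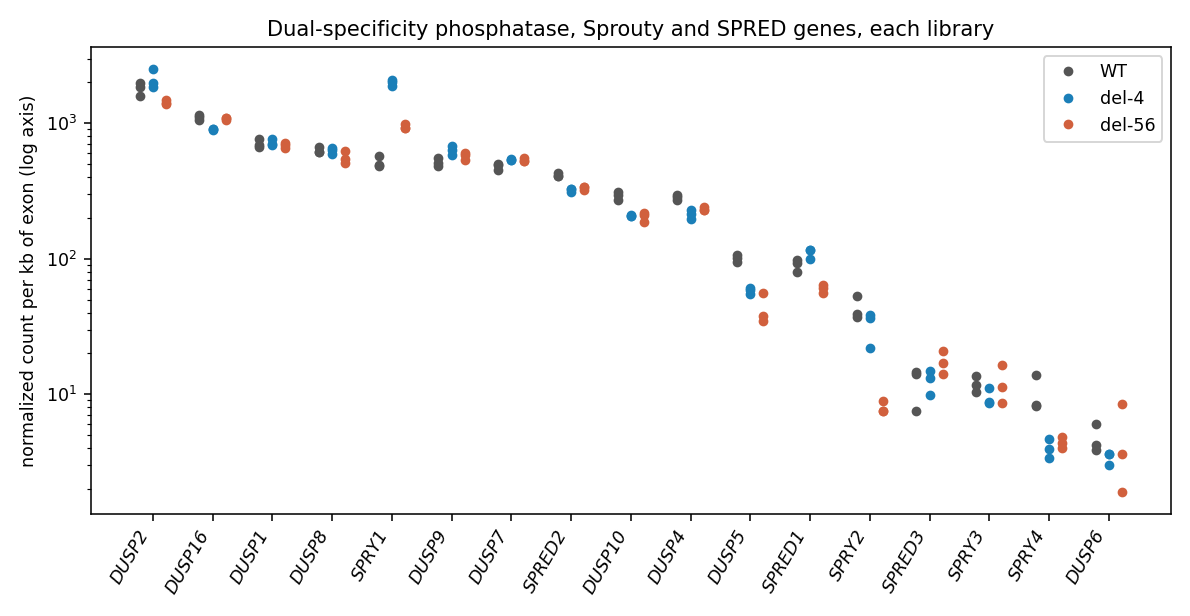
Normalized count per kilobase of exon (log axis) of the dual-specificity phosphatase, Sprouty and SPRED genes in each library of WT (grey), del-4 (blue) and del-56 (orange), ordered by the WT mean. *SPRY1* is above WT in both deletion clones, with 1992 in del-4 and 947 in del-56 per kilobase, and *SPRY2* in del-56 lies at 7.99 against 43.2 in WT.

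*EGR1* (ENSG00000120738.8, chromosome 5, 138465479 to 138469303, plus strand), a zinc finger transcription factor, had normalized counts of 38.7, 27.0 and 56.6 in WT, 61.5, 37.8 and 70.3 in the clone del-4, and 45.8, 68.3 and 55.8 in the clone del-56. The clones overlapped. The log2FC was 0.48 with a 95% interval of -0.26 to 1.22 in the clone del-4 (adjusted p = 0.30) and 0.51 with -0.21 to 1.22 in the clone del-56 (adjusted p = 0.26). *FOS* (ENSG00000170345.10, chromosome 14, 75278826 to 75282230, plus strand), a subunit of the AP-1 transcription factor, had 44.5, 38.6 and 9.43 in WT, 38.4, 37.8 and 24.1 in the clone del-4, and 13.4, 22.1 and 31.5 in the clone del-56. WT replicate 3 was the lowest of the 9 libraries and WT replicate 1 the highest, so that WT alone spanned the other clones. The log2FC was 0.34 with a 95% interval of -0.69 to 1.38 in the clone del-4 (adjusted p = 0.62) and -0.27 with -1.42 to 0.89 in the clone del-56 (adjusted p = 0.74), and leaving out 1 library turned its sign in both comparisons. By edgeR and DESeq2 the *FOS* value in del-4 was 0.12. Neither gene was called in either clone.

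Of the other immediate-early genes, 4 of 18 tested were higher and 4 lower in del-4, and 3 of 17 were higher and 7 lower in del-56. The shares called over all genes were 40.7% and 39.7%. The transcription factors *ATF3* (-0.42 and -0.73) and *KLF4* (-0.39 and -0.81) were lower in both clones, and the growth-restraining gene *BTG2* (0.51 and 0.57) and *IER5* (0.50 and 0.54) were higher. Of the other genes whose RNA follows ERK output, such as *ETV4*, *ETV5* and *MYC*, 2 of 9 tested were higher (*EPHA2*, 0.63, and *CCND1*, 0.11, the latter lost under 3 of 11 alternatives) and 1 lower (*PHLDA1*, -0.38) in del-4. In del-56 limma, edgeR and DESeq2 each called 0 of 8, and 1 of 8 had an unadjusted p under 0.05 by limma. With libraries rescaled to the same total, *CCND1* was called lower in del-56 (-0.11, adjusted p = 0.036).

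Upstream of the kinases, of 11 receptor tyrosine kinases, 5 were higher and 1 lower in del-4, and 3 were higher and 2 lower in del-56. The shares called over all genes were 40.7% and 39.7%. With libraries rescaled to the same total, 2 were higher and 3 lower in del-4, and with 1 fit of all 9 libraries 3 were higher and 1 lower. *FGFR2* had normalized counts of 65.7, 48.3 and 49.0 in WT, 279, 319 and 241 in the clone del-4, and 198, 225 and 170 in the clone del-56, so that WT was below every deletion library (log2FC 2.35 and 1.85). *IGF1R*, the receptor of insulin-like growth factors, was higher in both (1.00 and 0.78), as was *INSR* (0.13 and 0.25, in del-4 called under 5 of 11 alternatives), while *ERBB4* was lower in both (-0.68 and -1.58). Of the EGF-family ligands, *NRG3*, a ligand of the ERBB4 receptor, was higher (1.84 and 0.89) and *EGF* lower (-0.32 and -0.29, the second lost under 2 of 11 alternatives). The RAS genes *HRAS* (0.20 and 0.15) and *NRAS* (0.42 and 0.36) were higher in both clones, and 0 of 11 alternatives changed these calls. Among the alternatives, centring used the median of the whole chromosome, and shifts of single chromosome arms were not examined. The adaptor *GAB1* was higher (0.37 and 0.49), the RAS GTPase-activating gene *RASA3* lower (-0.17 and -0.17, at 0.0010 and -0.015 after centring on its chromosome), and *PEBP1*, which binds and restrains RAF kinase, higher (0.16 and 0.18).

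Among the kinases that ERK phosphorylates and its ternary complex factors, 6 of 11 were higher and 1 lower in del-4, and 4 were higher and 2 lower in del-56. After chromosome centring, 4 were higher and 2 lower in del-4, and 5 higher and 2 lower in del-56. *RPS6KA3* (0.37 and 0.28), *RPS6KA1* (0.29 and 0.32) and *MKNK1* (0.25 and 0.29) were higher in both clones, and *RPS6KA4* was lower (-0.24 and -0.22). Of 13 genes of the parallel JNK, p38 and ERK5 pathways, 4 were higher and 2 lower in del-4, and 4 were higher and 1 lower in del-56. *MAPK8* (0.31 and 0.35), *MAP2K3* (0.16 and 0.24, the first lost when libraries were rescaled to the same total) and *MAPK14* (0.23 and 0.16) were higher in both. Over the 12 lists outside the 9 genes, 31 genes were higher and 17 lower of 107 tested in del-4, which is 44.9%, and 23 were higher and 24 lower of 104 in del-56, which is 45.2%, near the 40.7% and 39.7% called over all genes. With libraries rescaled to the same total, 22 were higher and 23 lower in del-4, and 20 higher and 26 lower in del-56.

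**Figure D5:**
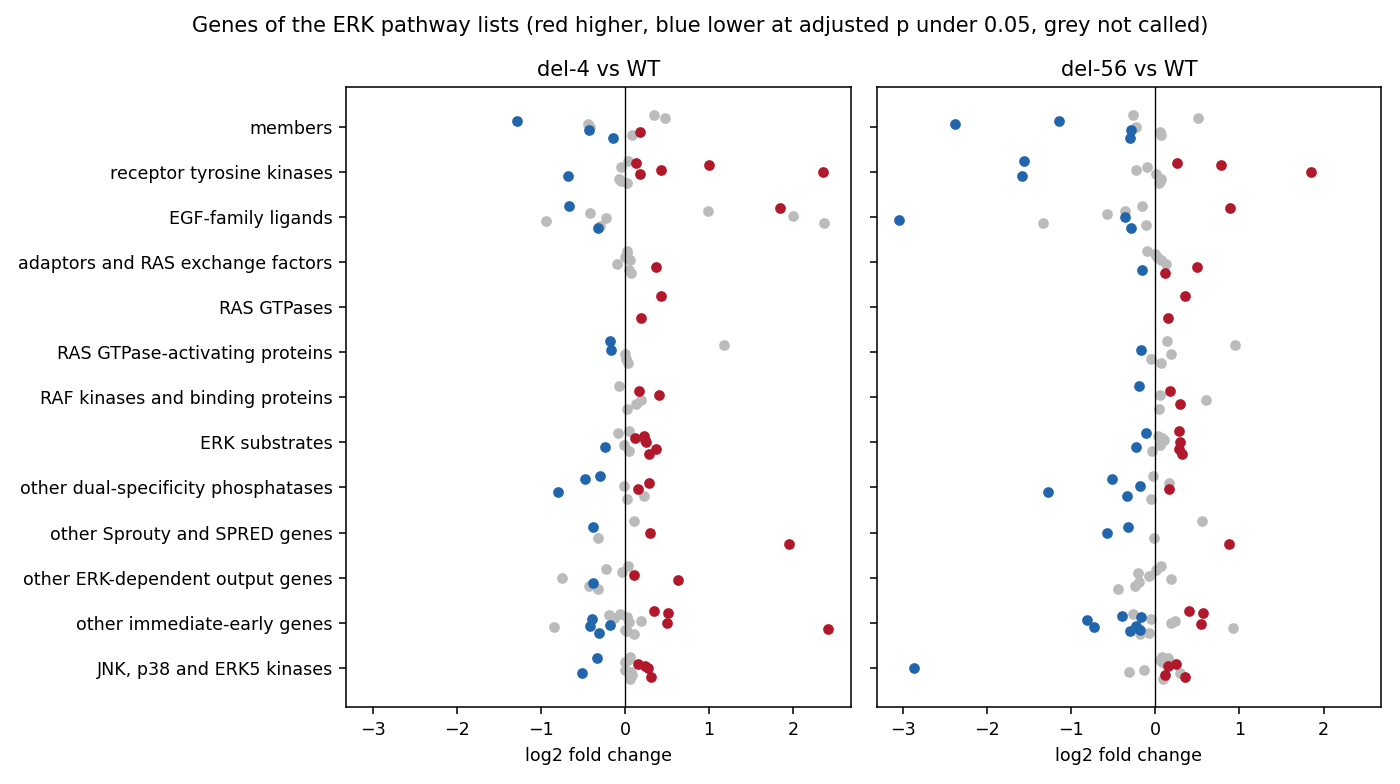
Log2 fold change against WT (x axis) of each tested gene of the ERK pathway lists (rows), in del-4 (left) and del-56 (right), red where called higher, blue where called lower and grey where not called. The 2 RAS genes shown are red in both clones, and the 9 members hold 3 blue points in del-4 and 4 in del-56.

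Over the 9 libraries, the genes whose pattern was most like that of each member were found among 13753 genes by the Pearson correlation of log2(normalized count + 1), given as a description, since all libraries come from 3 clones and any gene that differs between clones correlates. For *MAPK3* they were *RBCK1* and *MMGT1* (both r = 0.97), for *MAP2K1* *PLXNB3* and *PPP6R2* (both 0.97), for *MAP2K2* *HERC2* and *WDFY3* (both 0.99), and for *DUSP4* *NECTIN1* (0.99) and *RIPOR1* (0.98). For *SPRY2* they were *MYO1C* (0.99) and *ZNF66* (0.98), and for *SPRY4* *TC2N* and *LCMT1* (both 0.98). The low and variable members had lower values: *DUSP6* with *CCDC88A* and *IKZF4* (both 0.91), *EGR1* with *NUDCD2* (0.92) and *ZNF226* (0.91), and *FOS* with *GPRASP2* (0.93) and the overlapping readthrough gene *ARMCX5-GPRASP2* (0.92). Among the members themselves, *DUSP4* and *SPRY4* had r = 0.87 and *MAPK3* and *SPRY2* 0.82, while *FOS* was between -0.39 and 0.23 with every other member.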

How the data were processed

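RNA was sequenced as strand-specific, polyA-enriched paired-end libraries from 3 cultures each of del-4, del-56 and WT. Per the methods and the submitters' processing notes, reads were checked with FastQC 0.11.8, trimmed with Trim Galore 0.6.5, aligned to GRCh38 with STAR 2.71a and counted on protein-coding transcripts (GENCODE) with bedtools 2.27.1. The deposited signal values are read counts that the authors divided by 1 size factor per library. Checked on the values, 100% are whole multiples of 1 step per library within 0.01 read, and most low values are even (83.8% of those of 1 to 20 reads), since both mates are counted. Of 19984 identifiers, 19905 matched GENCODE version 44, which gave symbols and GRCh38 positions, and 79 did not.

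Each pair of clones was compared on its 6 libraries with limma 3.58.1 (R 4.3.3) on log2(normalized count + 1) with a variance trend, for genes with a mean of at least 1, with Benjamini-Hochberg adjustment over all of them. Exon lengths per kilobase come from the union of annotated exons. Beyond the 9 genes, up to 4 genes per list were named, those with the largest mean log2FC among genes called in the same direction in both clones with a mean of at least 50, and lists of 3 or fewer were named whole; other genes were chosen after their values were seen. The members and lists were chosen with earlier results of these data known. Alternatives were other pseudocounts (0.5 and 5), filters, scalings and call rules, a joint fit of the 9 libraries, a replicate block, edgeR 4.0.16 and DESeq2 1.42.0 on recovered reads, chromosome centring, and leaving out each library. The tests were tested on simulated data. Some genes of the pathway are not reported here and were left out of the lists and their counts after the analysis. Protein, phosphorylation and tumor data were not used here.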

Additional observations from a re-analysis of the deposited data

Results flagged for a closer look

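*SPRY2*, an inhibitor of receptor tyrosine kinase signalling, is noted because the deletion clones differed from each other when tested directly: its log2FC of del-4 against del-56 was 1.93 (limma, adjusted p = 2.1e-04), with 70.1 to 124 normalized counts in del-4 and 24.1 to 28.6 in del-56. All 3 del-4 libraries were above all 3 del-56 libraries. No other of the 9 genes was called in this comparison.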

How the results depend on the processing

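Over the 9 genes and 3 comparisons, 431 of 459 values kept direction and side of the threshold, 7 lost and 8 gained a call, and 13 turned sign. With a log2FC above 1 or below -1 required as well, at an adjusted or an unadjusted p, 1 gene was called in del-4 and 2 in del-56. Between the deletion clones, the count was 2 in 1 fit of all 9 libraries, 2 with DESeq2 and 2 after chromosome centring. Leaving out each library gave 3 to 4 genes in del-4, 3 to 4 in del-56 and 1 to 3 between the deletion clones. The 3 occurred without del-56 replicate 1 (*MAPK3*, *MAP2K2* and *SPRY2*) and the 2 without del-4 replicate 2. *MAPK3* turned sign after chromosome centring, to 0.20 in del-4 and 0.0046 in del-56, and lost its call in del-4 under quantile normalization (adjusted p = 0.062). Leaving out 1 library, *FOS* ranged from -0.33 to 0.73 in del-4 (-0.33 without WT replicate 3) and from -0.94 to 0.12 in del-56, where it was 0.044 without del-56 replicate 1, 0.12 without WT replicate 1 and 0.021 without WT replicate 2. In del-56, *MAP2K2* ranged from -0.010 (without del-56 replicate 1) to 0.094 and *DUSP6* from -0.76 to 0.25 (without del-56 replicate 3). Between the deletion clones, *MAP2K1* was -0.022 after rescaling to the same total, *EGR1* 0.039 after quantile normalization, and from -0.21 to 0.23 with 1 library left out (0.23 without del-4 replicate 2 and 0.11 without del-56 replicate 2), and *DUSP6* from -0.67 to 0.34 (without del-56 replicate 1). The causes were not tested. Rescaling to the same total moved the share of calls over all genes that were higher from 50.3% to 32.4% in del-4 and from 54.7% to 36.7% between the deletion clones, and shifted the median of all genes in del-4 to -0.072.

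Same-numbered libraries had correlations of their deviations from the clone means of -0.053 to 0.063 over 15373 genes. Same-numbered pairs with a del-4 library were at 0.023 to 0.063, and other pairs with del-4 at -0.054 to 0.0053. Between del-56 and WT, same-numbered pairs were at -0.053 to -0.00047 and other pairs at -0.010 to 0.044. Not every library correlated best with its own number, and the main test did not use the numbers to pair libraries. With the replicate number as a block, 3 genes were called between the deletion clones (*MAPK3*, *MAP2K2* and *SPRY2*), and 4 against WT in each deletion clone. *DUSP6*, *FOS* and *EGR1* had few reads and intervals that span more than 1 on the log2 scale, and the part of depth in this was not tested.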

Other observations

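Some genes of the pathway lists differed between the deletion clones and were picked out after their values were seen. *MAPK13*, which encodes a p38 kinase, had normalized counts of 1392, 1351 and 1374 in WT and 1592, 1643 and 1760 in del-4, but 202, 193 and 167 in del-56. Its log2FC against WT was -2.87 in del-56, and del-4 exceeded del-56 by 3.15. *MET*, the receptor of hepatocyte growth factor, was at 273, 263 and 280 in WT, 294, 284 and 257 in the clone del-4, and 111, 90.4 and 77.6 in the clone del-56, with a log2FC of 0.03 (del-4) and -1.55 (del-56). The del-56 libraries were below all others for both genes.

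*SPRED1* was above WT in del-4 (0.30) and below it in the clone del-56 (-0.58), with normalized counts of 615 to 757 for WT, 772 to 905 for del-4 and 429 to 496 for del-56. Its direct difference between the deletion clones was 0.88. In del-4 the call against WT was lost when libraries were rescaled to the same total (0.23, adjusted p = 0.072). *DUSP2*, the most abundant per kilobase in WT (1809) of the dual-specificity phosphatases listed here, was below WT in del-56 (-0.33), and del-4 exceeded del-56 (0.56). After centring on its chromosome, the call in del-56 was lost (-0.18, adjusted p = 0.077). In del-4 *DUSP2* was not called against WT (0.23). It was called higher there after centring (0.37, adjusted p = 0.0033) and by edgeR (0.23, adjusted p = 0.042). Over the 12 lists, del-4 exceeded del-56 at 21 genes and was below it at 9 of 106 tested, which is 28.3%, against 19.9% of all genes. With libraries rescaled to the same total it exceeded del-56 at 17 genes and was below it at 11.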
